A study of Mus musculus with 18 samples.

Results

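The 9 genes described here encode the alpha subunits of the hypoxia-inducible factors HIF (Hif1a and Epas1), their shared beta subunit (Arnt), the prolyl hydroxylases that read oxygen (Egln1, Egln2 and Egln3), the asparagine hydroxylase Hif1an, the ubiquitin ligase subunit Vhl and the HIF inhibitor Cited2. They were chosen by symbol, and all 9 were found among the 13578 genes measured in embryonic stem cells (ESCs), the 13518 in trophoblast stem cells (TSCs) and the 11538 in extra-embryonic endoderm stem (XEN) cells, out of 14804 genes in all. All 9 also passed the filter on low values in each cell type. RNA-seq was done on mouse cells of each type kept in normoxia (20% O2) or in hypoxia (2% O2) for 2 or 7 days, with 2 biological replicates per condition and 18 libraries. The ESCs were the E14 line on gelatin in serum and LIF, the TSCs were grown on feeder cells with FGF4 and heparin, and the XEN cells grew on gelatin in medium partly conditioned by fibroblasts. The labels name no line for the TSCs and XEN cells. No genotype or drug differed between groups, and the study compared how stem cells of the embryo and of its supporting tissues respond to low oxygen.

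In the presence of oxygen, the EGLN enzymes hydroxylate the HIF alpha subunits, VHL then binds the hydroxylated subunit and marks it for degradation, and HIF1AN hydroxylates another site that blocks the coactivators p300 and CBP. In low oxygen these reactions slow, the alpha subunit is kept, pairs with ARNT and binds DNA at a short core, ACGTG or GCGTG, beside genes of glycolysis, angiogenesis and oxygen sensing. Egln1 and Egln3 are themselves well known HIF targets, so that oxygen sensing feeds back on itself, and Cited2 encodes a competitor of HIF for p300 and CBP. This control is largely on protein stability and activity, which mRNA does not measure.

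The genes lie on 8 chromosomes of the mouse build GRCm38. Hif1a (chr12:73901375-73947530, plus strand) and Egln3 (chr12:54178981-54203860, minus strand) share chromosome 12. Epas1 lies at chr17:86753700-86833410 and Arnt at chr3:95434388-95497240, both on the plus strand. Egln1 lies at chr8:124908587-124949324 and Egln2 at chr7:27158658-27166802, both on the minus strand. Hif1an (chr19:44562850-44576274), Vhl (chr6:113623959-113631633) and Cited2 (chr10:17723218-17725674) are on the plus strand. Counts are of whole genes, and 5.6% of the exon bases of Hif1a overlap an antisense gene, Gm15283, and 2.51% a gene on the same strand, Gm49321. Egln2 shares 0.39% of its exon bases with Cyp2t4 on the opposite strand. Reads of these shared bases cannot be given to one gene with certainty.

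The promoters of the 3 prolyl hydroxylases are shown because Egln1 and Egln3 were the members with the largest differences in hypoxia and Egln2, of the same family, was among those with the smallest. Capitals mark the core ACGTG or GCGTG on either strand (read on the other strand as CACGT or CACGC). The sequences end before the first base of the gene in the annotation used here, are written 5′ to 3′ on the strand of the gene, and come from RefSeq (GRCm38.p6).
Egln1, chr8:124949325-124949504, minus strand: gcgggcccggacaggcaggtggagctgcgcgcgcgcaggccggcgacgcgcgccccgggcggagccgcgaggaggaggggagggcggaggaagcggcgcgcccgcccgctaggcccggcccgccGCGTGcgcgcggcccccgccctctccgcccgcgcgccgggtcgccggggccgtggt
Egln3, chr12:54203875-54204124, minus strand: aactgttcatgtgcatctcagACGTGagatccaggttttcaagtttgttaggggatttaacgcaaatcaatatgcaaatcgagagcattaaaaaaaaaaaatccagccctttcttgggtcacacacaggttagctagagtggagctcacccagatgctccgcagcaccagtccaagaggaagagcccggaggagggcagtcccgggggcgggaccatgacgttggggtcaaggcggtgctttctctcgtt
Egln2, chr7:27166803-27167052, minus strand: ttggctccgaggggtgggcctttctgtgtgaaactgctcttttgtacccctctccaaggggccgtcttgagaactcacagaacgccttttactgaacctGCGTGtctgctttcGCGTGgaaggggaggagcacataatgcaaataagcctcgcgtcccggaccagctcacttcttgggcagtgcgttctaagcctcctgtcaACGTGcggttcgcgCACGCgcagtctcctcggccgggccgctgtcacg

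In the full window of 250 bases before the RefSeq start, Egln1 held 2 core matches, 1 of them in the last 70 bases, which the annotation used here already counts as transcript. Egln3 held 1 match, 229 bases before the start, and Egln2 held 4 in the window shown and 1 in that of a second RefSeq start (chr7:27165729-27165978). Hif1a held 3, Cited2 2 and Arnt 1, while none was found in the windows of Hif1an and Vhl. Among all 32851 promoter windows of this length, 38.6% held at least 1 match, 16.7% at least 2, 6.58% at least 3 and 2.58% at least 4. By motif, 16.6% of all windows held ACGTG and 28.2% GCGTG. The palindrome CACGTG, which counts once on each strand, stood in the windows of Hif1a and Cited2. A match to these letters is a description and not a bound site.

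The libraries held between 35592641 and 75204029 reads of the genes listed for the cell type, recovered from the deposited values. Each member had between 254 and 146675 of them. ESC markers summed to 12200 to 15740 TPM in ESCs and XEN markers to 2376 to 2882 TPM in XEN cells. The 7 TSC markers summed to between 781 and 2312 TPM in TSCs, lowest on day 7, and the 11 markers of fibroblast feeder cells to between 210 and 1893 TPM in TSCs, 24.4 to 41.9 TPM in ESCs and 0.769 to 2.01 TPM in XEN cells. Fewer cells of a type and less RNA per cell cannot be told apart in such bulk samples.

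Of the 9 genes, Egln3 had the largest log2 fold change in each of the 6 comparisons of hypoxia with normoxia, and Egln1 was second in 5 of them. In XEN cells Egln3 rose 6.99-fold by day 7 (95% interval 4.99 to 9.79), the one call of a member against normoxia. A gene was called where the Benjamini-Hochberg adjusted p of limma was at or under 0.1 and the fold change over 1.5. At these thresholds the study, with edgeR, reported more genes against normoxia in each cell type on both days. A share of 0% below is thus a result of this fit and not an absence of response. The log2 fold changes below are of TPM plus a pseudocount of 0.5.

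**Figure D1:**
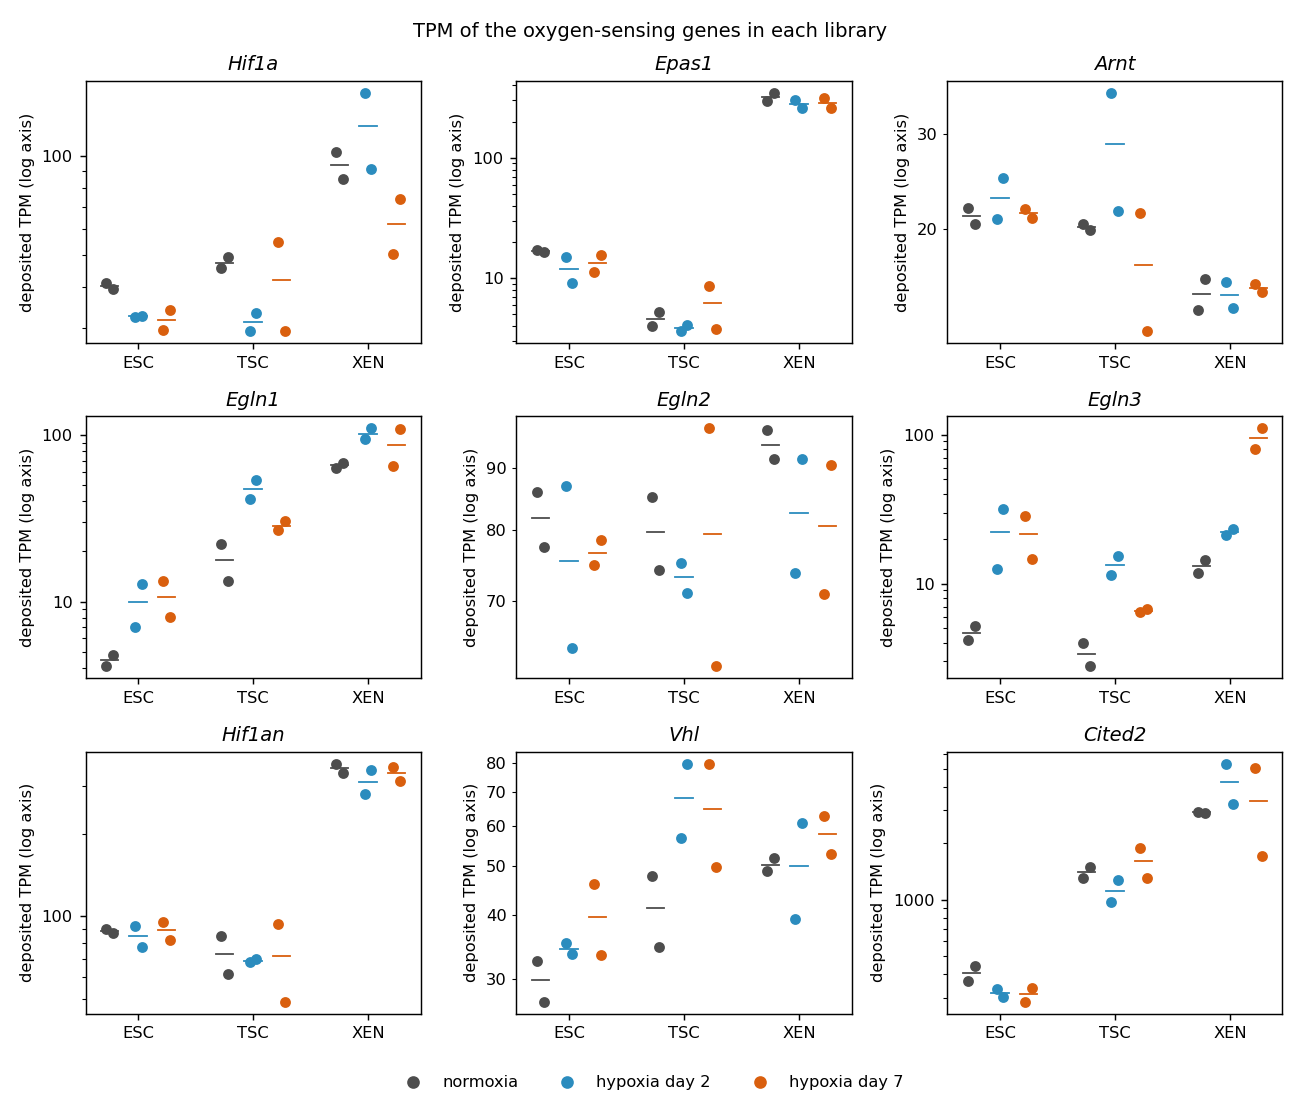
Deposited TPM of the 9 genes in each of the 18 libraries (points, log axis, a separate scale for each gene), grouped by cell type on the horizontal axis and coloured by condition. The short line is the mean of the 2 replicates. Egln3 in XEN cells on day 7 sits at 80.6 and 110.2 TPM, above its other XEN libraries, and Epas1 in XEN cells sits between 260.0 and 347 TPM in all 6 libraries.

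Egln3, an inducible member of the family, stood at 4.18 and 5.18 TPM in normoxic ESCs, 12.5 and 31.6 TPM on day 2 and 28.3 and 14.6 TPM on day 7. Both hypoxic days lay above normoxia without overlap, while the replicates of each day lay wide apart. The log2 fold change was 1.99 on day 2 (95% interval 1.03 to 2.95, adjusted p = 0.522, limma) and 2.02 on day 7 (1.06 to 2.98, adjusted p = 0.120), and neither was called. Of 12271 genes tested in ESCs, 0% were called on day 2 and 0.758% on day 7, and none of the 9 members was called on either day. Without day 2 replicate 1, 3 members (Egln1, Egln3 and Epas1) and 493 of all genes were called on day 2.

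In TSCs Egln3 stood at 3.996 and 2.78 TPM in normoxia, 11.4 and 15.3 TPM on day 2 and 6.43 and 6.71 TPM on day 7. Day 2 was the highest condition, day 7 lay between day 2 and normoxia, and no 2 conditions overlapped. The log2 fold change was 1.84 on day 2 (95% interval 1.19 to 2.49, adjusted p = 0.116, limma) and 0.88 on day 7 (0.23 to 1.53, adjusted p = 0.341). From day 2 to day 7 Egln3 fell by 0.96 on the log2 scale (interval -1.60 to -0.31, adjusted p = 0.0798, limma), a call made in a comparison in which 16.2% of 12481 genes were called. The call was lost with median-ratio scaling (adjusted p = 0.153), without any one of the 4 libraries of days 2 and 7 and with the replicate number as a block (adjusted p = 0.103). The median log2 fold change of all genes in this comparison was -0.24. Of all genes, 0.2% were called on day 2 and 0.385% on day 7 against normoxia, and no member was, although voom on recovered reads, exon-length TPM and a filter at 1 TPM each called Egln3 on day 2. Along with this fall, the TSC marker sum, with Sox2 its largest part on average, went from 1983 and 2312 TPM on day 2 to 910 and 781 TPM on day 7. The trophoblast differentiation sum, nearly all Hand1, went from 8587 and 7247 to 14770 and 12880 TPM. In normoxia the marker sum was 1763 and 1816 TPM and the differentiation sum 8654 and 14210 TPM, so the latter overlapped day 7. The part of either in the result was not tested.

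In XEN cells Egln3 stood at 11.8 and 14.4 TPM in normoxia, 21.2 and 23.1 TPM on day 2 and 80.6 and 110.2 TPM on day 7. The 3 conditions did not overlap, and both day 7 libraries lay above every other XEN library. Day 7 was higher than normoxia by 2.81 on the log2 scale (95% interval 2.32 to 3.29, adjusted p = 0.0119, limma) and than day 2 by 2.07 (1.58 to 2.55, adjusted p = 0.0870). These were calls in comparisons in which 0.11% and 0.0367% of 10894 genes were called, and no other member was called in either. On day 2 the log2 fold change was 0.74 (0.25 to 1.22, adjusted p = 0.477), and 0% of genes were called. The call of day 7 against normoxia was lost without either of the day 2 libraries (adjusted p = 0.133 and 0.140), which leave the fold change as it is, and in a fit of the 4 libraries compared (adjusted p = 0.151). The call against day 2 was lost without either day 2 library (adjusted p = 0.880 and 0.349), without day 7 replicate 1 (0.174), without the filter on low values (0.118) and without the variance trend (0.102).

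Egln1, the main oxygen sensor of the family in most tissues, was higher in hypoxia in all 3 cell types but was called in none. In ESCs it stood at 4.08 and 4.79 TPM in normoxia, 7.07 and 12.8 TPM on day 2 and 13.3 and 8.08 TPM on day 7. The hypoxic libraries did not overlap the normoxic ones, and the log2 fold changes were 1.03 (95% interval 0.33 to 1.73, adjusted p = 0.765, limma) and 1.14 (0.44 to 1.85, adjusted p = 0.269). In TSCs the values were 22.3 and 13.3 TPM, 41.1 and 54.0 TPM, and 26.7 and 30.4 TPM. Day 2 was again the highest condition, and the log2 fold changes were 1.42 (0.75 to 2.10, adjusted p = 0.155) on day 2 and 0.71 (0.03 to 1.39, adjusted p = 0.460) on day 7. Normoxic replicate 1, the normoxic TSC library with the higher Egln1, also had 1893 TPM of fibroblast markers against 269 in replicate 2. On day 2 replicate 2 had the higher Egln1 and 972 TPM of these markers against 210 in replicate 1. Egln3 and Vhl were also higher in the library with more fibroblast markers in both conditions. On day 7 replicate 1 had more of them (447 against 268 TPM), with lower Egln1 and Egln3 and higher Vhl. The part of feeder cells in this was not tested. In XEN cells the values of Egln1 were 63.8 and 67.6 TPM, 94.5 and 109.7 TPM, and 65.4 and 109 TPM. Day 2 stood apart from normoxia (0.63, interval 0.04 to 1.21, adjusted p = 0.598), while day 7 overlapped it because its replicate 1 lay at the normoxic level (0.36, interval -0.22 to 0.94, adjusted p = 0.706).

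**Figure D2:**
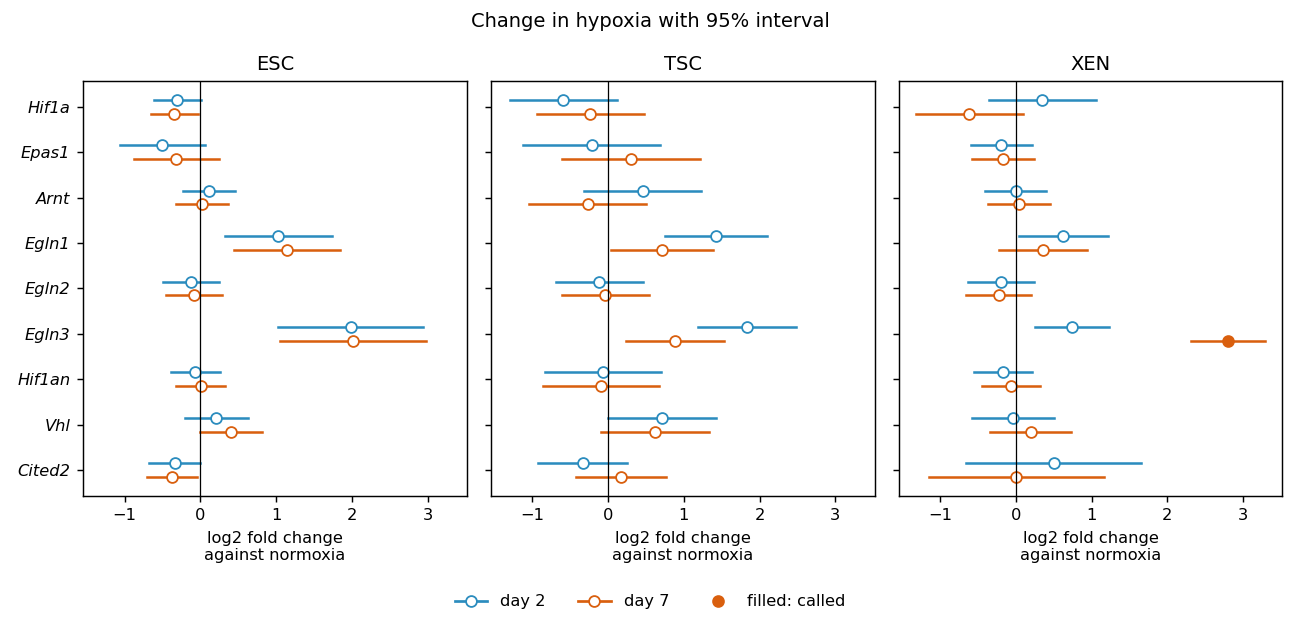
Log2 fold change (horizontal axis) of each member in hypoxia against normoxia in the 3 cell types, with 95% intervals from limma, for day 2 and day 7. The filled point is the one called, Egln3 in XEN cells on day 7 at 2.81, and most other members lie within 0.6 of 0.

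Egln3 and Egln1 were also compared within each library, per base of exon. Egln3 stood at 0.153 and 0.176 of the level of Egln1 in normoxic XEN cells and at 0.185 and 0.174 on day 2, and at 1.02 and 0.835 on day 7. In ESCs the same ratio was 0.845 and 0.891 in normoxia and between 1.46 and 2.03 in hypoxia. In TSCs it stayed between 0.148 and 0.233 in all 6 libraries, with Egln3 below Egln1 in each. The ratio lay above its normoxic values in ESCs and TSCs on both days and in XEN cells on day 7. In TSCs it was 0.229 and 0.233 on day 2 and 0.198 and 0.182 on day 7, against 0.148 and 0.172 in normoxia.

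Egln2, which is not known as a HIF target, had the smallest log2 fold changes of the 3 prolyl hydroxylases. Its values in ESCs were 86.1 and 77.6 TPM in normoxia, 86.9 and 64.1 TPM on day 2 and 75.0 and 78.5 TPM on day 7, and the conditions overlapped. In TSCs they were 85.2 and 74.3 TPM, 75.3 and 71.2 TPM, and 96.9 and 61.9 TPM, again with overlap. In XEN cells they were 96.6 and 91.5 TPM, 73.9 and 91.6 TPM, and 71.0 and 90.4 TPM, and only day 7 lay below normoxia. No fold change exceeded 0.23 in size on the log2 scale. In XEN cells on day 7 the 95% interval reached from -0.66 to 0.21, so that a moderate decrease is within the error.

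Hif1a, the alpha subunit that drives much of the acute response, was 41.1 and 39.5 TPM in normoxic ESCs, 32.4 and 32.6 TPM on day 2 and 29.5 and 33.9 TPM on day 7. All hypoxic ESC libraries lay below the normoxic ones, with log2 fold changes of -0.31 (95% interval -0.61 to 0.00, adjusted p = 0.970, limma) and -0.34 (-0.65 to -0.03, adjusted p = 0.554). In TSCs it was 45.6 and 49.2 TPM, then 29.4 and 33.3 TPM, then 54.8 and 29.3 TPM. Day 2 lay below normoxia (-0.59, interval -1.30 to 0.12), while the day 7 replicates straddled it. In XEN cells it was 103 and 85.0 TPM, then 156 and 91.5 TPM, then 50.4 and 73.9 TPM. Day 2 overlapped normoxia and day 7 lay below both, at -0.61 against normoxia (-1.32 to 0.09, adjusted p = 0.601) and -0.96 against day 2 (-1.67 to -0.26, adjusted p = 0.392). None was called, and without day 2 replicate 1 the XEN difference on day 2 was -0.03 in place of 0.35.

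Epas1, the alpha subunit HIF2, stood at very different levels in the 3 cell types. Per base of exon, its level in XEN cells was between 1142 and 1524 exon-length TPM over the 6 libraries, against 43.1 to 80.6 in ESCs and 16.3 to 39.7 in TSCs. On this scale it was the most abundant member in normoxic XEN cells and the second least abundant in normoxic TSCs. Each table was scaled by itself, so these levels are set side by side and not tested. The ratio of Epas1 to Hif1a, taken within a library, was 3.56 to 11.4 in XEN cells, 0.508 to 0.840 in ESCs and 0.161 to 0.288 in TSCs, and the ranges did not overlap.

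Between oxygen conditions, Epas1 was called in no comparison with all 6 libraries in the fit. On the deposited scale it stood at 17.0 and 16.4 TPM in normoxic ESCs, 14.9 and 9.08 TPM on day 2 and 11.4 and 15.6 TPM on day 7. Hypoxic ESC libraries were lower without overlap, by -0.50 (95% interval -1.06 to 0.06) and -0.32 (-0.88 to 0.24) on the log2 scale. With a library left out these ran from -0.85 (without day 2 replicate 1, called) to -0.16 (without day 2 replicate 2) on day 2 and from -0.54 (without day 7 replicate 2) to -0.10 (without day 7 replicate 1) on day 7. In TSCs it was 4.02 and 5.22 TPM, 3.64 and 4.12 TPM, and 8.67 and 3.77 TPM, with overlap on both days. In XEN cells it was 299.7 and 347 TPM, 305 and 261 TPM, and 316 and 260.0 TPM, and the conditions overlapped. The intervals in XEN cells, -0.60 to 0.21 on day 2 and -0.58 to 0.24 on day 7, lie within 1 log2 unit of 0.

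Arnt, the beta subunit, was 21.8 and 20.4 TPM in normoxic ESCs, 20.8 and 24.8 TPM on day 2 and 21.8 and 21.0 TPM on day 7. In TSCs it was 20.4 and 19.9 TPM, 35.8 and 21.6 TPM, and 21.4 and 12.9 TPM, so that day 2 lay above normoxia through a wide gap between its replicates (0.46, 95% interval -0.32 to 1.23). In XEN cells it was 14.1 and 16.1 TPM, 15.9 and 14.2 TPM, and 15.8 and 15.2 TPM, with log2 fold changes of 0.00 and 0.04. Hif1an, the asparagine hydroxylase, overlapped between conditions in every comparison with normoxia, with log2 fold changes between -0.17 and 0.00. It stood between 77.4 and 95.6 TPM in ESCs, between 48.7 and 94.0 TPM in TSCs and between 279 and 361 TPM in XEN cells.

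Vhl, the substrate receptor that binds hydroxylated HIF, was 32.5 and 27.0 TPM in normoxic ESCs, 35.2 and 33.6 TPM on day 2 and 46.1 and 33.4 TPM on day 7. In TSCs it was 47.9 and 34.6 TPM, 56.9 and 79.5 TPM, and 79.7 and 49.9 TPM. Hypoxic libraries lay above the normoxic ones in both cell types, with log2 fold changes between 0.21 and 0.72 that were not called. In XEN cells it was 48.8 and 51.8 TPM, 39.4 and 60.8 TPM, and 62.8 and 52.8 TPM, and only day 7 stood above normoxia (0.19, 95% interval -0.35 to 0.73).

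Cited2 was the most abundant member in ESCs and TSCs. Its values in ESCs were 371 and 441 TPM in normoxia, 335 and 305 TPM on day 2 and 286 and 340 TPM on day 7. Hypoxic libraries were lower, at -0.34 (95% interval -0.67 to -0.01) and -0.38 (-0.71 to -0.04) on the log2 scale, with adjusted p = 0.970 and 0.549 (limma). In TSCs it was 1308 and 1500 TPM, 968 and 1269 TPM, and 1891 and 1313 TPM, below normoxia on day 2 and overlapping it on day 7. In XEN cells the hypoxic replicates were wide apart, at 2949 and 2906 TPM in normoxia, 5305 and 3222 TPM on day 2 and 5026 and 1717 TPM on day 7. The XEN intervals, -0.66 to 1.65 and -1.15 to 1.16, are the widest of any member.

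Counted over all members, 6 of 9 did not overlap normoxia in ESCs on day 2 (30.8% of all genes) and 6 on day 7 (40.5%). In TSCs the number without overlap was 6 on day 2 (47.4%) and 3 on day 7 (41.3%). In XEN cells 3 lay apart from normoxia on day 2 (41%) and 4 on day 7 (41.3%). With 9 genes and shared normoxic libraries between the days, these shares are descriptions. In each cell type day 7 was also set against day 2, and 0.179% of genes were called in that comparison in ESCs, where no member was. At an unadjusted p under 0.05 (limma) there were 3 members in ESCs on day 2, 4 on day 7 and 0 between the days, where 5.05%, 8.04% and 4.26% of all genes passed. In TSCs these numbers were 3, 2 and 2, beside 13.1%, 10.4% and 27.9% of all genes, and in XEN cells 2, 1 and 2, beside 7.77%, 9.01% and 11.9%. On day 2, where both limma and voom called 0 genes in ESCs and XEN cells, the genes that passed numbered 620 and 846. With 2 libraries a side, an exact permutation of labels could not give a p below 0.333. The median log2 fold change of all genes against normoxia was within 0.07 of 0 except in TSCs on day 7, where it was -0.18, and the 9 members there had a median of 0.17. From day 2 to day 7 in TSCs it was -0.24.

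Per base of exon and in normoxia, Cited2 led in ESCs at 137 exon-length TPM, followed by Hif1a at 106, Epas1 at 80.3 and Egln2 at 79.97, the last pair overlapping. Hif1an (60.3), Arnt (55.7) and Vhl (25.6) followed without overlap, and Egln1 (16.9) and Egln3 (14.7) overlapped at the foot. In TSCs Cited2 (447) and Hif1a (118) led, Egln2 (73.7), Egln1 (64.0), Arnt (50.3) and Hif1an (47.1) overlapped in turn, and Vhl (33.6), Epas1 (21.0) and Egln3 (10.1) followed without overlap. In XEN cells Epas1 (1420) and Cited2 (902) led, Egln1 (229), Hif1a (227) and Hif1an (217) overlapped in turn, Egln2 (84.3) stood alone and Vhl (39.7), Egln3 (37.8) and Arnt (36.5) overlapped. By day 7 in XEN cells Egln3 (275) overlapped Egln1 (305) above Hif1an (209) and Hif1a (150.1).

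**Figure D3:**
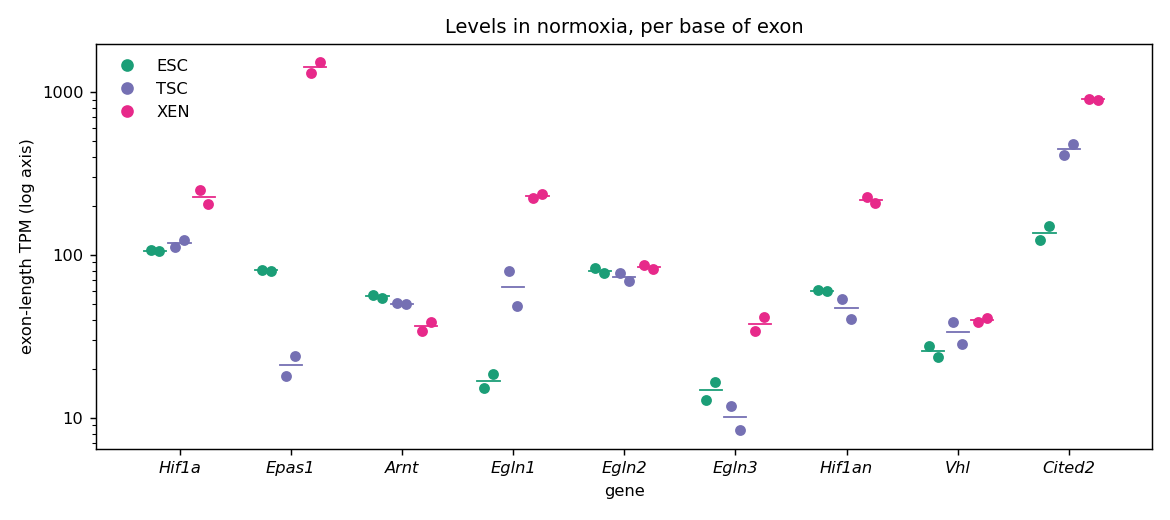
Exon-length TPM (log axis) of each member in the normoxic libraries of the 3 cell types, with points for the 2 replicates and a line for their mean. Epas1 spans from a mean of 21.0 in TSCs to 1420 in XEN cells, whereas Egln2 stays between 73.7 and 84.3. The tables were normalized separately, so cell types are compared by eye only.

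The other genes of the pathway were taken as fixed lists without the members. Of 24 well known HIF targets, 23 were tested in both ESCs and TSCs, and 22 in XEN cells. In ESCs 22 of 23 were higher on day 2 (median log2 fold change 0.78, none called by limma, 14 at an unadjusted p under 0.05) and 22 on day 7 (median 0.75). Ldha, lactate dehydrogenase, was called on day 7 (0.99, adjusted p = 0.0813, limma), though not without either normoxic library or day 7 replicate 1. The call was also lost without the filter on low values (adjusted p = 0.186, limma) and with median-ratio scaling (0.149). It was lost too with the replicate block (0.229), without the variance trend (0.130) and at an adjusted p of 0.05. In TSCs 20 of 23 were higher on day 2, with a median of 1.28, and 7 were called against 0.2% of all genes. These were the glucose transporter Slc2a3 (3.53), the carbonic anhydrase Car12 (2.67), the pyruvate dehydrogenase kinase Pdk1 (2.47), the mitophagy receptors Bnip3 (2.46) and Bnip3l (1.35), Ndrg1 (2.05) and the glycolytic kinase Pgk1 (1.72). None of the 7 was called, nor any other gene, without any one of the 4 hypoxic TSC libraries or in a fit of the 4 libraries compared. On day 7 the TSC median was 0.46 with none called by limma and 7 at an unadjusted p under 0.05, and against day 2 the targets had a median of -0.96, with 13 called lower and 2, Bhlhe40 and Pfkfb4, called higher, where 16.2% of all genes were called. Of these 15 calls, 1 was left without day 2 replicate 1, 9 without day 2 replicate 2, 6 without day 7 replicate 1 and 0 without day 7 replicate 2.

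In XEN cells the targets had medians of 0.35 on day 2 (19 of 22 higher, none called by limma, 6 at an unadjusted p under 0.05) and 0.50 on day 7 (18 of 22 higher). The one called on day 7 was Adm, the peptide adrenomedullin, at 4.16 (adjusted p = 0.0119, limma), from a mean of 0.579 TPM in normoxia. Adm was not called without either day 2 library or day 7 replicate 1, nor in a fit of the 4 libraries compared (adjusted p = 0.151, limma). Adm and Egln3 were both higher on day 7 than on day 2, when the targets as a list had a median difference of 0.00. Of the 17 further HIF partners, 11, 12 and 8 were tested in ESCs, TSCs and XEN cells and none was called against normoxia by limma, with at most 2 at an unadjusted p under 0.05 in a comparison. From day 2 to day 7 in TSCs, 4 of these were called lower, the alpha subunit gene Hif3a (-2.33), Sim2 (-1.24), Cited4 (-1.21) and Npas2 (-0.86). Sim2 and Npas2 stood under 1 TPM. Mean Hif3a was 7.82 TPM in normoxia, 33.2 TPM on day 2 (2.03, adjusted p = 0.116, limma) and 6.20 TPM on day 7, which overlapped normoxia. Sim2, Cited4 and Npas2 were also higher on day 2 than in normoxia, but lay below it on day 7, without overlap and not called. From day 2 to day 7, 16.2% of all genes were called and 31.2% were higher. Without day 2 replicate 1 or day 7 replicate 2 none of the 4 was called, and 30 and 0 of all genes were. The list of the VHL ligase and HIF turnover held 20 symbols, older symbols of 3 of its genes among them, and the 17 symbols found in the tables were tested in each cell type. None of these was called against normoxia by limma, with medians within 0.11 of 0 and 0 or 1 gene at an unadjusted p under 0.05 in each comparison. Siah1b, of a family of ubiquitin ligases that act on EGLN proteins, fell by 0.73 in TSCs from day 2 to day 7, as 1 of 17 beside the 16.2% of all genes, and was not called without any one of the 4 libraries compared.

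**Figure D4:**
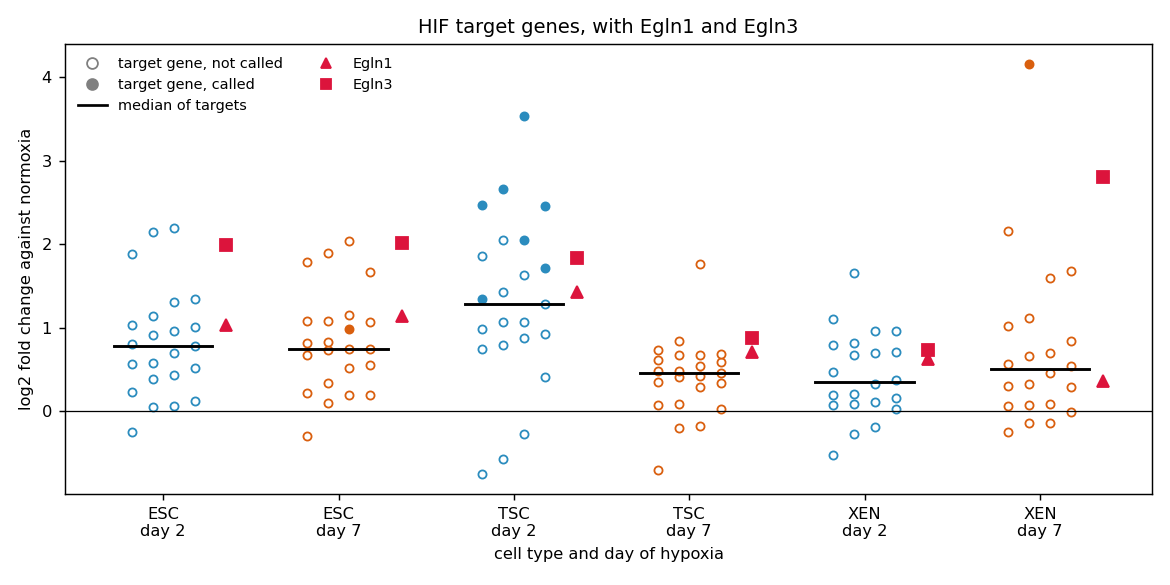
Log2 fold change against normoxia (vertical axis) of each HIF target gene tested (circles, filled where called) in the 6 comparisons, with the median as a black line and Egln1 and Egln3 in red. Egln3 lies above the median of the targets in all 6 comparisons, and by the most in XEN cells on day 7, at 2.81 against 0.50.

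The replicates of hypoxic ESCs differed in most HIF targets as well as in Egln1 and Egln3. On day 2 replicate 2 was higher than replicate 1 by 0.82 for Egln1 and 1.31 for Egln3 on the log2 scale, and 21 of 23 targets were higher in it, with a median of 0.64. On day 7 the order was the other way, by 0.69 and 0.93, and 1 of 23 targets was higher in replicate 2, with a median of -0.58. In normoxia 11 of 23 were. Of all genes tested in ESCs, 60.3% were higher in replicate 2 on day 2, 39.4% on day 7 and 28.5% in normoxia. The day 2 replicates had 55134683 and 61958573 recovered reads of the listed genes and the day 7 replicates 56017126 and 39649656. The part of depth in these differences was not tested.

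The profile of each member across the 18 libraries, centred on its cell type, was compared with those of 10081 genes that passed the filter in every cell type, as a description in which libraries of one cell type share their culture. Egln1 was most like Ldha (Pearson r = 0.96) and Pgk1 (r = 0.96), enzymes of glycolysis, and the r with Ldha was 0.96, 0.99 and 0.96 within ESCs, TSCs and XEN cells. Egln3 was most like Pfkp, a phosphofructokinase, at 0.90 and Prelid2 at 0.89, and its r with Egln1 was 0.75. In XEN cells Pfkp stood between 0.12 and 1.47 TPM, under the pseudocount in most libraries. Egln2 was most like Med16 (0.95) and Hif1an most like Ptpn11 (0.97), while Hif1a was most like Etf1 (0.95) and Arnt most like Eif4b (0.96). Epas1 (Cog1, 0.81), Vhl (Slc25a51, 0.80) and Cited2 (Ccne2, 0.72) had weaker best matches. Within a cell type, r with the best match was lowest in XEN cells for Epas1 (0.17) and Arnt (0.44) and in ESCs for Cited2 (0.40).

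**Figure D5:**
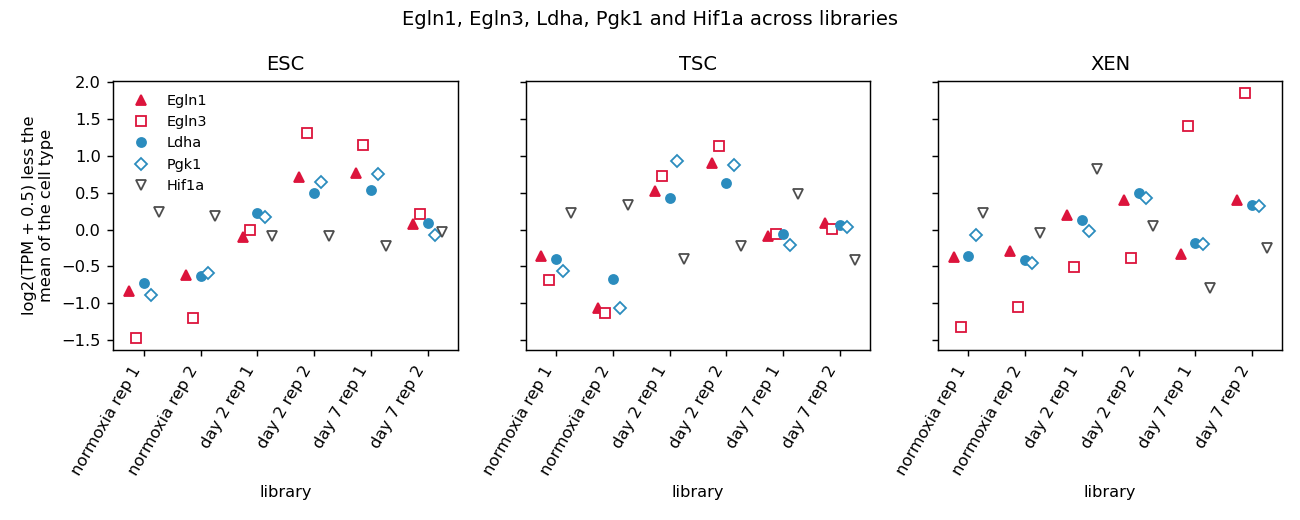
Centred log2 TPM (vertical axis) of Egln1, Egln3, Ldha, Pgk1 and Hif1a in each library of the 3 cell types (horizontal axis, by condition and replicate number). Egln1, Ldha and Pgk1 move together in each panel, Egln3 stands apart from them in XEN cells on day 7, and Hif1a does not follow them.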

How the data were processed

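Gene expression was measured by RNA-seq in 18 libraries. The authors deposited TPM in a table for each cell type, after trimming with cutadapt 2.4, alignment to mm10 with STAR 2.7.5a, counting with featureCounts, and filtering of genes at 0.4 CPM in at least 2 of 6 libraries with edgeR 3.26.8. Each table was normalized separately, and columns labelled day 0 were taken as normoxia. Deposited TPM times the distance from gene start to end lay within 0.05 of a whole multiple for 98.66% to 98.87% of values, so the authors scaled by gene span, introns included. Reads were recovered from this step, and TPM per exon length was recomputed with GENCODE (GRCm38). This takes the counts as reads of exons, which the deposited values do not show. Reads of introns, if counted, would raise genes of long span per base of exon. The span was 14.26 times the exon length for Epas1 and 1.0 times for Cited2.

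Here log2 TPM (pseudocount 0.5) of genes above 0.4 TPM in at least 2 of 6 libraries entered a limma fit (version 3.58.1, R 4.3.3) with a mean-variance trend over the 6 libraries of a cell type. Calls needed a fold change over 1.5 and an adjusted p (Benjamini-Hochberg) of 0.1 or less. The members, the gene lists and the rule for named genes (all members, called list genes and the 2 genes most like each member) were chosen with earlier results of these data known. The alternatives were other pseudocounts, filters, scaling, a replicate block, no trend, fewer libraries, voom and exon-length TPM. The fit was also run on simulated reads with known changes and a set spread, which need not match the spread between these replicates. Python 3.11.15 was used for tables.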

Additional observations from a re-analysis of the deposited data

Results flagged for a closer look

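The change of Egln3 from day 2 to day 7 of hypoxia was -0.96 on the log2 scale in TSCs and 2.07 in XEN cells, opposite in direction. The difference between the cell types was not tested. Cited2 was lower on day 2 in ESCs (-0.34) and TSCs (-0.34) and higher in XEN cells (0.50) in both replicates, and that difference was not tested either.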

How the results depend on the processing

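The count of members called moved as follows. In ESCs on day 2 (0 called), it was 0 to 3 with a library left out. In ESCs on day 7 (0 called), it was 2 in a fit of the 4 libraries compared, 1 with exon-length TPM, and 0 to 2 with a library left out. In TSCs on day 2 (0 called), it was 1 with a filter at 1 TPM, with voom on recovered reads and with exon-length TPM. In TSCs from day 2 to day 7 (1 called, Egln3), it was 0 without a filter on low values, with median-ratio scaling, with the replicate block and at an adjusted p of 0.05, 2 with the 4 libraries, and 0 to 1 with a library left out. In XEN cells on day 7 (1 called, Egln3), it was 0 with the 4 libraries and 0 to 1 with a library left out. In XEN cells from day 2 to day 7 (1 called, Egln3), it was 0 without a filter, without the trend and at an adjusted p of 0.05, and 0 to 1 with a library left out. The cause was not tested, except that a stricter threshold calls fewer.

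Whether the replicate number pairs the samples could not be decided, since 2 replicates give a single deviation per gene and condition. Correlations of the deviations of same-numbered libraries ran from -0.464 to 0.272, and with the replicate block 1 member was called in XEN cells on day 7 against normoxia and 1 against day 2, and 0 in the other 7 comparisons. The deviations in TSCs between normoxia and day 2 were at -0.464, and with the numbers of day 2 swapped, chosen after seeing the data, 2 members were called on day 2 and 326 of all genes. Of all genes, the block called 18 in place of 93 in ESCs (day 7), 3 in place of 25 in TSCs (day 2) and 43 in place of 12 in XEN cells (day 7). A fit of the 4 libraries called 320, 0 and 1 in the same comparisons.

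Of 999 values of a member under another setting, 18 changed sign, none where the change exceeded its standard error. The filters, the replicate block, the fit without a trend, the stricter threshold and the fit of the 4 libraries leave the fold change as it is. Values under these settings could not change sign, and neither could those without a library that is not in the comparison. With a library left out, 55 of 486 changed sign, 8 of them where the change exceeded its standard error. The ranges of those 8 were -0.0922 to 0.80 (Hif1a, TSCs, day 7 against day 2), -0.0336 to 0.73 (Hif1a, XEN, day 2), -0.0334 to 1.07 (Epas1, TSCs, day 7 against day 2), -0.63 to 0.10 and -0.0055 to 0.72 (Egln1, XEN, day 7 against day 2 and against normoxia), -0.0397 to 0.42 (Vhl, ESCs, day 7 against day 2), -0.0772 to 0.54 (Vhl, XEN, day 7 against day 2) and -1.27 to 0.28 (Cited2, XEN, day 7 against day 2). With 2 replicates, no outlying library could be tested.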
